A study of Mus musculus with 8 samples.

Results

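The common gamma chain is the receptor subunit shared by the receptors for interleukin 2, 4, 7, 9, 15 and 21. Its gene, Il2rg, and the genes of the 7 receptor chains that pair with it (Il2ra, Il2rb, Il4ra, Il7r, Il9r, Il15ra and Il21r) were taken by name from the 19826 genes of the deposited table. All 8 were listed and all 8 passed the filter on low values. They were measured by RNA-seq in mouse regulatory T cells (Treg), the Foxp3-expressing CD4 T cells that restrain immune responses. The libraries fell into 2 groups of 4. The Pdpk1 KO libraries came from mice of genotype Foxp3 YFP-Cre/+ Pdpk1 FL/FL and the WT libraries from mice of genotype Foxp3 YFP-Cre/+ Pdpk1 +/+, all C57BL/6 and untreated. Both groups therefore carried a Foxp3 allele coding for YFP and Cre on a single X chromosome, so that Cre acts only in cells that express this Foxp3 allele and the animals also hold Treg without Cre. YFP-positive CD4 cells were sorted from the spleen and peripheral lymph nodes without culture. The sources used here do not give ages, nor whether each library was 1 mouse, and the p-values below rest on the spread among libraries, which may be technical. Pdpk1 encodes PDK1, a kinase that activates AKT and related kinases downstream of PI3K.

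Cytokines of this family bind a private chain and the common gamma chain together, which brings the kinases JAK1 and JAK3 next to each other and activates STAT transcription factors, mostly STAT5 for interleukin 2, 7, 9 and 15, STAT6 for interleukin 4 and STAT3 for interleukin 21. Treg depend on interleukin 2, which they bind with high affinity through the alpha chain CD25 (Il2ra), while the interleukin 7 receptor alpha chain CD127 (Il7r) is usually low on Treg and high on naive T cells. Il7r is a textbook target of FoxO1, a transcription factor held in the cytoplasm by AKT.

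Among the 8 genes, Il7r and Il2ra were higher in Pdpk1 KO libraries, and Il21r and Il9r were lower. The start-site windows of these 4 genes are shown because they are the members that changed, and because their regulation is often discussed through FoxO, STAT and ETS factors. Each window is 300 bases from RefSeq (GRCm38.p6), from 250 bases before to 50 after the RefSeq start site, 5′ to 3′ on the gene's strand. They lie at chr15:9529827-9530126 on the minus strand for Il7r, chr2:11642542-11642841 on the plus strand for Il2ra, chr7:125603179-125603478 on the plus strand for Il21r, and chr11:32200230-32200529 on the minus strand for Il9r. Capitals mark the FoxO-type word GTAAACA, the STAT-type word TTCNNNGAA and the ETS-type word AGGAAG, each searched on both strands. No marked words overlap.
Il7r: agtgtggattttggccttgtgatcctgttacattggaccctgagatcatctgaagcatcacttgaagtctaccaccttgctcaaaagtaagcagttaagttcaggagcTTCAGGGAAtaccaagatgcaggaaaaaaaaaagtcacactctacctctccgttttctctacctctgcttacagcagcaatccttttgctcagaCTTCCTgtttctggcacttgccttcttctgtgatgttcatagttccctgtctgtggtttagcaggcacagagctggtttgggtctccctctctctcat
Il2ra: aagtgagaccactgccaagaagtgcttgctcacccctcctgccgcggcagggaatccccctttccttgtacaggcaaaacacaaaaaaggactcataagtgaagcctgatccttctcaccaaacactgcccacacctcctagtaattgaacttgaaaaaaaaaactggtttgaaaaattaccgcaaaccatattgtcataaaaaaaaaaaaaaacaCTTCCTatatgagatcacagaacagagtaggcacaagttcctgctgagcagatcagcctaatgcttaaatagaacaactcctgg
Il21r: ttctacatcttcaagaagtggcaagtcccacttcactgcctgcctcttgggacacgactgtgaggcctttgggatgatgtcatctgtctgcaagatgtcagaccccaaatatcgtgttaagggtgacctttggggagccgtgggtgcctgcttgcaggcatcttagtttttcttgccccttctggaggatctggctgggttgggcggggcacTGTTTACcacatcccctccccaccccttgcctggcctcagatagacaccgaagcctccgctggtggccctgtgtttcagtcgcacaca
Il9r: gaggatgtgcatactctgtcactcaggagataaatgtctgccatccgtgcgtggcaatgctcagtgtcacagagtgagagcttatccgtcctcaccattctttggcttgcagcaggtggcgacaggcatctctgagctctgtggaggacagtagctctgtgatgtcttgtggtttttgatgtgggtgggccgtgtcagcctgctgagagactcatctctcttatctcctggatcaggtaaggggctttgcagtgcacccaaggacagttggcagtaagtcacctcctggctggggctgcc

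The Il7r window held 1 STAT-type word, TTCAGGGAA, 142 bases before the start site, and 1 ETS-type word 48 bases before it. The Il2ra window held 1 ETS-type word, the Il21r window 1 FoxO-type word 38 bases before the start site, and the Il9r window none of the 3. Over all 32851 windows in the RefSeq set, 3.65% held the FoxO-type word, 8.30% the STAT-type word and 35.4% the ETS-type word. Of the 8 genes, 7 had a window, and in the windows not shown in letters (Il2rg, Il4ra and 2 of Il15ra) the only matches were 1 ETS-type word each in Il2rg, Il4ra and 1 of the Il15ra windows. A match describes the letters and is not evidence of binding, and words outside these windows were not searched.

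Depth lay between 17448095 and 26299577 recovered reads per library. Pdpk1 itself, summed over all its exons, was not past the threshold (log2 change -0.17, limma adjusted p = 0.491), so this value does not check the labels. All 8 T cell and Treg markers were listed and above 0 in every library, from 1409 normalized counts upward, and 1 of them (Il2ra) was higher and 1 (Ikzf2, at 3607 to 10132 over the libraries) lower in Pdpk1 KO. Foxp3 averaged 5355 ± 743 in Pdpk1 KO and 5086 ± 740 in WT (SD, n = 4 each, exact permutation p = 0.6). Of 18 tested macrophage markers, 8 were higher and 1 (Axl) lower in Pdpk1 KO. The summed level of all 20 listed macrophage markers ran from 2148 to 6984 normalized counts in Pdpk1 KO and from 1602 to 3108 in WT, with Cd14, Fcgr1, Mertk, Spic, Marco and Cd163 among those at 0 in 2 or 3 libraries. Over all 13847 genes tested, 1311 were past the limma threshold, 4.41% of those tested being higher and 5.06% lower.

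Measured per kilobase of exon, so that genes can be compared, Il2rb was the most abundant of the family, and the private chains Il9r and Il15ra were the least abundant. In Pdpk1 KO the mean levels in normalized counts per kilobase were 5862 for Il2rb, 4276 for Il2ra, 2327 for Il2rg, 1520 for Il7r, 1207 for Il4ra, 974 for Il21r, 35.8 for Il15ra and 11.0 for Il9r. In WT they were 5460 for Il2rb, 2946 for Il2rg, 2755 for Il2ra, 1585 for Il21r, 989 for Il4ra, 563 for Il7r, 49.2 for Il9r and 41.8 for Il15ra. The order thus differed between the groups: Il7r stood in place 4 in Pdpk1 KO and in place 6 in WT, and Il21r in place 6 in Pdpk1 KO and in place 4 in WT. The lengths are unions of all exons of a gene, and the Il2rg level may be affected by an overlapping gene model named below. Not every step in the order exceeded the spread. In Pdpk1 KO the library ranges of Il7r and Il4ra overlapped, as did those of Il4ra and Il21r, and in WT those of Il2rg and Il2ra overlapped, as did those of Il9r and Il15ra.

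**Figure D1:**
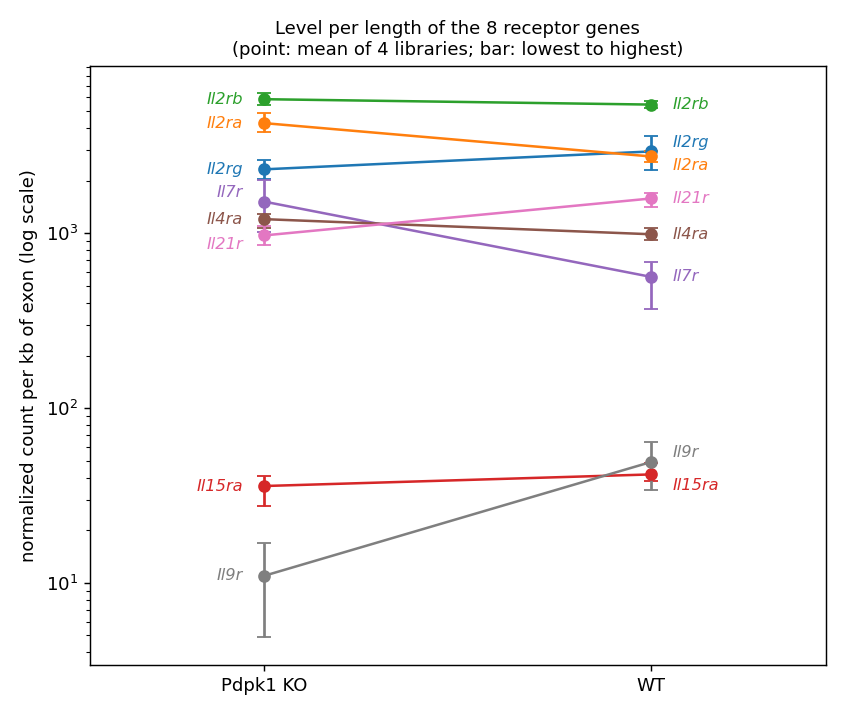
Normalized counts per kilobase of exon (log axis) of the 8 receptor genes in Pdpk1 KO (left) and WT (right). Points are means of 4 libraries and bars run from the lowest to the highest library. Il7r and Il2ra stand higher in Pdpk1 KO, Il21r and Il9r stand lower, and Il2rb leads in both groups.

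The shared chain itself did not pass the threshold. Il2rg (ENSMUSG00000031304, chromosome X, 101264378 to 101268255, minus strand) had 4868, 6259, 5286 and 5801 normalized counts in Pdpk1 KO replicates 1 to 4, against 5484, 7070, 8640 and 6933 in WT replicates 1 to 4. The groups overlapped, because WT replicate 1 lay among the Pdpk1 KO libraries. The log2 change, here and below Pdpk1 KO minus WT on the log2(normalized count + 1) scale, was -0.33 (95% interval -0.597 to -0.0597, limma adjusted p = 0.125, exact permutation p = 0.0857). Without WT replicate 1 it was -0.44 and past the threshold (adjusted p = 0.0239). A second gene model, Gm20489, overlaps Il2rg on the same strand, and the sources used here do not give how reads there were assigned.

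Of the chains that bind interleukin 2, the alpha chain rose and the beta chain, which interleukin 2 and 15 share, did not pass the threshold. Il2ra (ENSMUSG00000026770, chromosome 2, 11642807 to 11693193, plus strand) had 24854, 23474, 21600 and 27752 normalized counts in Pdpk1 KO replicates 1 to 4, against 15580, 14729, 15682 and 16947 in WT replicates 1 to 4. Every Pdpk1 KO library lay above every WT library. The rise was 1.55-fold (95% interval 1.33 to 1.80), a log2 change of 0.63 ± 0.10 (SE, limma adjusted p = 0.00114, exact permutation p = 0.0286, the smallest that 4 against 4 libraries allow). In bulk libraries a larger share of cells that express a gene and more RNA per cell cannot be told apart. Il2rb (ENSMUSG00000068227, chromosome 15, 78479256 to 78495271, minus strand) averaged 25131 ± 1779 normalized counts in Pdpk1 KO and 23407 ± 955 in WT (SD, n = 4 each). Its groups overlapped, and its log2 change was 0.10 (95% interval -0.109 to 0.311, limma adjusted p = 0.602), or -0.08 after quantile normalization (adjusted p = 0.761).

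The proportions of these chains also differed between the groups. The ratio of Il2ra to Il2rb per kilobase was between 0.683 and 0.809 in Pdpk1 KO and between 0.482 and 0.569 in WT, with no overlap. The 7 partner chains summed to between 12790 and 14704 normalized counts per kilobase in Pdpk1 KO and between 11194 and 11848 in WT. Set against Il2rg, that sum was 6.03 ± 0.81 times its level in Pdpk1 KO and 3.98 ± 0.72 times its level in WT (SD, n = 4 each), and the libraries of the groups did not overlap. The Il2rg level may be affected by the overlapping gene model Gm20489, so the size of the ratio to Il2rg is uncertain. These ratios are descriptions of transcript levels and were not tested.

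Il15ra, whose product binds interleukin 15 and presents it to neighbouring cells, is the gene next to Il2ra, 12096 bases away on chromosome 2 (ENSMUSG00000023206, 11705290 to 11734317, plus strand). It was low in all libraries, at 159 ± 27.4 normalized counts in Pdpk1 KO and 186 ± 21.3 in WT (SD, n = 4 each). The lowest library was Pdpk1 KO replicate 4 and the highest WT replicate 4, and the groups overlapped. The log2 change was -0.23 (95% interval -0.675 to 0.215, limma adjusted p = 0.568).

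Il7r showed the largest rise of the family. Il7r (ENSMUSG00000003882, chromosome 15, 9505788 to 9530176, minus strand) had 8343, 9455, 5772 and 4774 normalized counts in Pdpk1 KO replicates 1 to 4, against 3182, 2654, 2944 and 1729 in WT replicates 1 to 4. The groups did not overlap, although the Pdpk1 KO libraries were spread widely, replicates 1 and 2 being high and replicates 3 and 4 lower, and replicate 4 was the lowest library of each group. The rise was 2.67-fold (95% interval 1.96 to 3.62), a log2 change of 1.41 ± 0.21 (SE, limma adjusted p = 0.000437, exact permutation p = 0.0286). The macrophage markers averaged 5.80, 7.88, 7.47 and 5.99 on the log2 scale in Pdpk1 KO replicates 1 to 4 and 3.35, 6.53, 4.46 and 4.93 in WT replicates 1 to 4. With that mean as a covariate the Il7r change was 1.42 (adjusted p = 0.00959), and it was 1.32 when Pdpk1 KO replicates 2 and 3 and WT replicate 2, the highest in these markers, were left out (adjusted p = 0.0203).

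Il7r and Il2ra, whose products mark the interleukin 7 and interleukin 2 responsive states of T cells, were both higher in Pdpk1 KO, but their order across libraries differed. Pdpk1 KO replicate 4 had the highest Il2ra and the lowest Il7r of its group. The ratio of Il7r to Il2ra per kilobase was 0.411, 0.493, 0.327 and 0.211 in Pdpk1 KO replicates 1 to 4, against 0.250, 0.221, 0.230 and 0.125 in WT replicates 1 to 4. The ranges overlapped through Pdpk1 KO replicate 4, and in each group replicate 4 had the lowest ratio. As a share of the summed level per kilobase of the 8 genes, Il7r made up 9.33 ± 2.59% in Pdpk1 KO and 3.92 ± 0.96% in WT, and Il2ra 26.4 ± 2.31% in Pdpk1 KO and 19.2 ± 1.53% in WT (SD, n = 4 each).

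**Figure D2:**
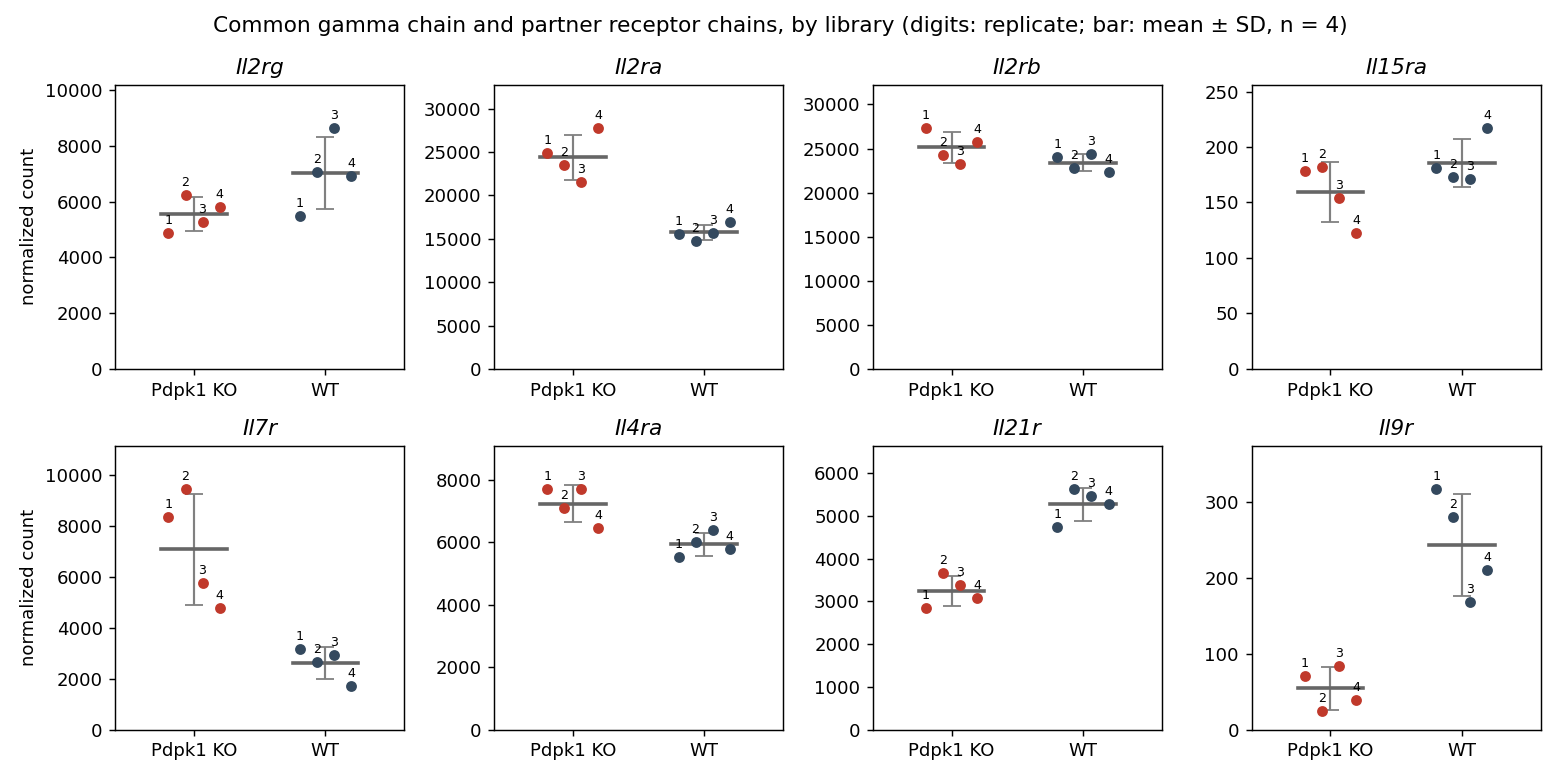
Normalized counts of each receptor gene by library, Pdpk1 KO left and WT right in each panel, with the replicate number at each point and bars for mean ± SD of 4 libraries. The groups are apart for Il2ra, Il7r, Il4ra, Il21r and Il9r, and overlap for Il2rg, Il2rb and Il15ra.

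Il4ra and Il21r lie side by side on chromosome 7, 23954 bases apart and in the same orientation, and had changes of opposite sign, of which only that of Il21r passed the threshold. Il21r encodes the private chain of the interleukin 21 receptor (ENSMUSG00000030745, 125603429 to 125633570, plus strand). It had 2851, 3650, 3379 and 3071 normalized counts in Pdpk1 KO replicates 1 to 4, against 4736, 5624, 5451 and 5263 in WT replicates 1 to 4. All Pdpk1 KO libraries were below all WT libraries, and replicate 1 was the lowest of each group. The log2 change was -0.71 ± 0.10 (SE, 95% interval -0.916 to -0.495, limma adjusted p = 0.000294, exact permutation p = 0.0286), or 0.613 times the WT level.

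Il4ra, the private chain for interleukin 4 that also forms a receptor for interleukin 13, lies at 125552120 to 125579474 on the plus strand (ENSMUSG00000030748). It had 7700, 7093, 7713 and 6462 normalized counts in Pdpk1 KO replicates 1 to 4, against 5536, 6024, 6405 and 5774 in WT replicates 1 to 4. The groups did not overlap, but the gap between Pdpk1 KO replicate 4 and WT replicate 3 was small. The log2 change was 0.29 ± 0.09 (SE, 95% interval 0.0896 to 0.481) and was not past the threshold in limma (adjusted p = 0.065) or edgeR (adjusted p = 0.0703), while it was in DESeq2 (adjusted p = 0.0189). Without Pdpk1 KO replicate 4 it passed in limma at 0.34 (adjusted p = 0.0393). The ratio of Il21r to Il4ra per kilobase was between 0.669 and 0.929 in Pdpk1 KO and between 1.54 and 1.69 in WT. On that scale Il4ra was the higher of the pair in every Pdpk1 KO library and Il21r in every WT library. Before division by exon length (6002 bases for Il4ra, 3324 for Il21r) Il4ra had more normalized counts in every library of both groups. Which of the pair was the more abundant in WT therefore rests on the lengths used.

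Il9r, the private chain of the interleukin 9 receptor, had the largest fall and the fewest reads. Il9r (ENSMUSG00000020279, chromosome 11, 32187541 to 32200279, minus strand) had 70.8, 24.1, 84.2 and 38.4 normalized counts in Pdpk1 KO replicates 1 to 4, against 317, 279, 168 and 211 in WT replicates 1 to 4. The groups did not overlap. The log2 change was -2.26 ± 0.37 (SE, 95% interval -3.04 to -1.48, limma adjusted p = 0.00104, exact permutation p = 0.0286), which leaves 0.209 times the WT level. Of 4 mast cell and basophil markers only Cpa3 was listed, at 3.29 to 23.9 normalized counts in Pdpk1 KO and 0 to 27.2 in WT, and the part of such cells in the Il9r result was not tested.

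Of the 8 genes, then, 2 rose, 2 fell and 4 did not pass the threshold, against 9.47% of all genes tested that were past it in either direction. By edgeR the same 4 were called, against 9.06% of all genes, and by DESeq2 these and Il4ra, against 12.7%. The groups did not overlap for 5 of the 8, against 15.3% of all genes tested. The median log2 change of the 8 was -0.06, beside -0.01 for all genes tested. The 4 calls were kept in all 16 alternative fits. Il7r ranged from 1.23 to 1.59, Il2ra from 0.48 to 0.74, Il21r from -0.90 to -0.65 and Il9r from -2.52 to -1.93 over those fits. With the macrophage covariate Il2ra, Il21r and Il9r were at 0.74, -0.90 and -2.06 (adjusted p = 0.00589, 0.000349 and 0.0333).

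**Figure D3:**
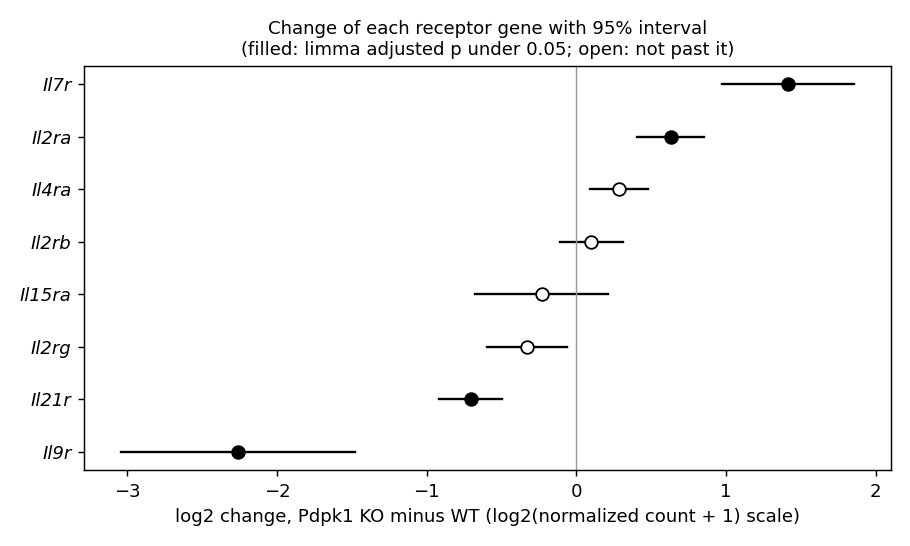
Log2 change (Pdpk1 KO minus WT) of each receptor gene with its 95% interval, ordered by size. Filled points, past an adjusted p of 0.05, are Il7r at 1.41, Il2ra at 0.63, Il21r at -0.71 and Il9r at -2.26. Open points are not past it.

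**Figure D4:**
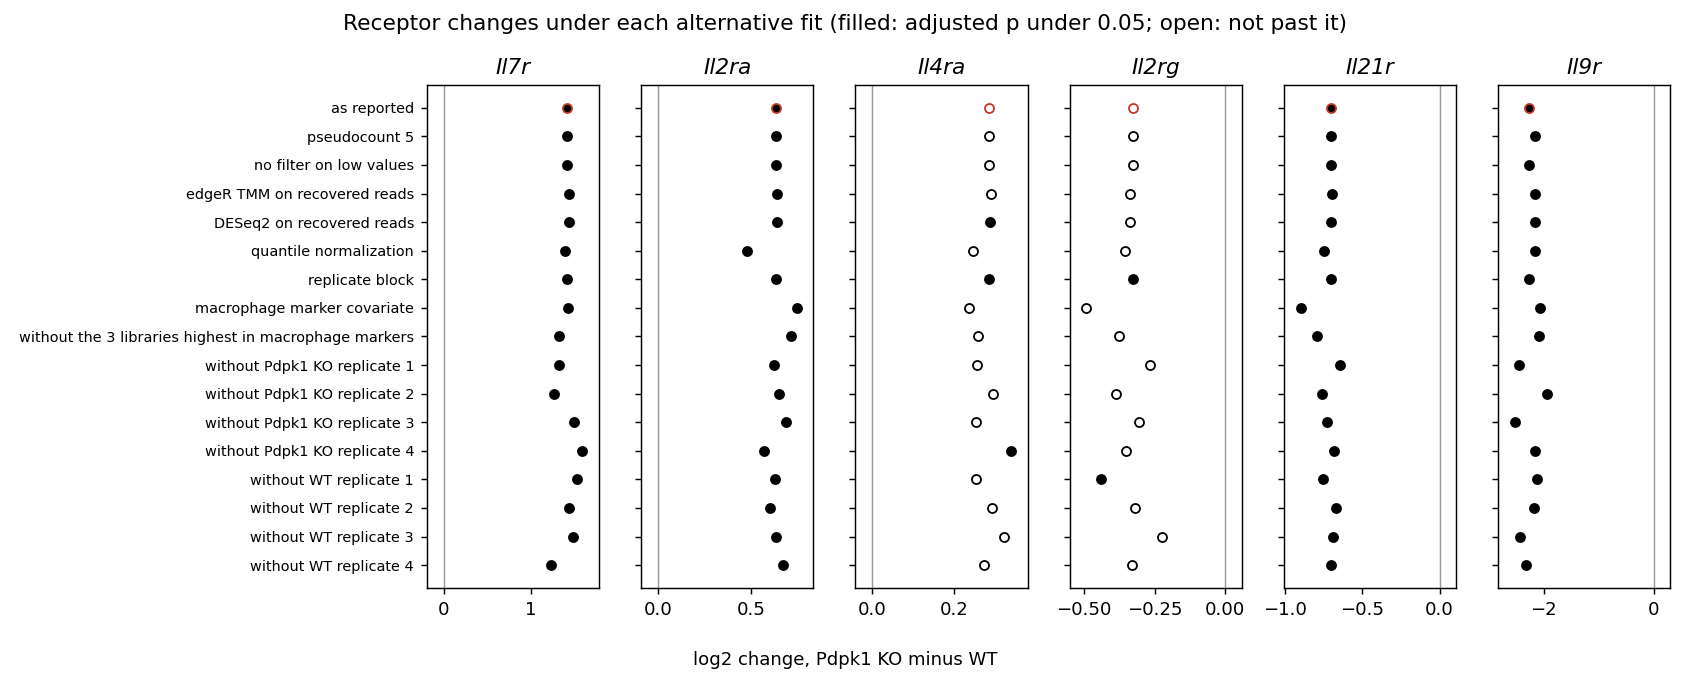
Log2 change of 6 receptor genes (columns) as reported and in 16 alternative fits (rows), filled where the adjusted p is under 0.05. Il7r, Il2ra, Il21r and Il9r are filled in every row, while Il4ra is filled in 3 alternatives and Il2rg in 2.

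Ligands of the family were at low levels in the sorted cells. Of the 6 cytokine genes, Il7 and Il9 were not among the listed genes. Il2 and Il15 totalled 28 and 25 reads over the 8 libraries, and the remaining 2 were tested. Il4 had 42.8, 71.2, 40.4 and 36.7 normalized counts in Pdpk1 KO replicates 1 to 4, against 10.2, 17.7, 11.1 and 3.51 in WT replicates 1 to 4. It rose by a log2 change of 2.19 ± 0.56 (SE, limma adjusted p = 0.0218), but was not past the threshold without Pdpk1 KO replicate 2 (1.99, adjusted p = 0.0787), without WT replicate 4 (1.79, adjusted p = 0.0559), with the macrophage covariate (1.73, adjusted p = 0.294) or without the 3 macrophage-high libraries (2.26, adjusted p = 0.196). Il21, the ligand of the receptor chain that fell, averaged 11.0 ± 5.71 normalized counts in Pdpk1 KO and 10.2 ± 3.35 in WT (SD, n = 4 each, limma adjusted p = 0.993).

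Il7r has another partner, the thymic stromal lymphopoietin receptor chain Crlf2, which moved opposite to it. Crlf2 had 1059, 1462, 1555 and 1563 normalized counts in Pdpk1 KO replicates 1 to 4, against 1951, 1894, 2090 and 2378 in WT replicates 1 to 4. The log2 change was -0.57 ± 0.13 (SE, limma adjusted p = 0.00988), or -0.66 with the macrophage covariate (adjusted p = 0.0523). In normalized counts Il7r was 5.28 ± 2.28 times Crlf2 in Pdpk1 KO and 1.29 ± 0.39 times Crlf2 in WT (SD, n = 4 each), without overlap. Unlike the ratios above, this one is not divided by exon length, which is 4663 bases for Il7r and 1495 for Crlf2. It therefore compares the groups and does not say which of the 2 transcripts was the more abundant. Of the other 3 partner and ligand genes beside Crlf2, only Il13ra1 was tested, and it was not past the threshold (log2 change 1.32, adjusted p = 0.24).

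Among 12 genes that carry the signal onward, 1 was higher, 1 lower and 10 not past the threshold, beside 9.47% of all genes tested that were past it. The one that fell was Jak3, the kinase that sits on the common gamma chain itself, with 4259, 3673, 3775 and 4077 normalized counts in Pdpk1 KO replicates 1 to 4, against 7231, 4912, 5475 and 5083 in WT replicates 1 to 4. WT replicate 1 stood above all other libraries, and the groups did not overlap. The log2 change was -0.51 ± 0.12 (SE, limma adjusted p = 0.0109). The macrophage covariate gave -0.24 and omitting the 3 macrophage-high libraries gave -0.49, neither of them past the threshold (adjusted p = 0.395 and 0.153).

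Jak1 encodes the kinase brought next to JAK3 in these receptors. It averaged 19383 ± 1958 normalized counts in Pdpk1 KO and 16381 ± 942 in WT (SD, n = 4 each, limma adjusted p = 0.176). Stat5a averaged 2765 ± 321 in Pdpk1 KO and 3237 ± 66.0 in WT (adjusted p = 0.153, or 0.0458 after quantile normalization), and Stat5b 6843 ± 522 in Pdpk1 KO and 6492 ± 205 in WT (adjusted p = 0.68). The gene that rose was Irs2, an adaptor that the interleukin 4 receptor chain and the insulin receptor use, at 704 ± 72.4 in Pdpk1 KO and 342 ± 83.5 in WT (SD, n = 4 each, limma adjusted p = 0.000939). The median log2 change of the 12 was -0.13.

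Of 12 inhibitors of cytokine signalling, Socs2 rose, Cish and Sh2b3 fell and 9 were not past the threshold. Beside them, 4.41% of all genes tested were higher and 5.06% lower. The median log2 change of the 12 was -0.26. Socs2, which is induced through STAT5, had 5605, 4693, 3971 and 5118 normalized counts in Pdpk1 KO replicates 1 to 4, against 2243, 2007, 1971 and 1849 in WT replicates 1 to 4. Cish, also a STAT5-induced inhibitor, went the other way, with 2525, 2005, 2090 and 2552 in Pdpk1 KO replicates 1 to 4 against 3085, 3324, 3385 and 3535 in WT replicates 1 to 4. Neither gene's groups overlapped. The log2 changes were 1.26 ± 0.11 for Socs2 and -0.55 ± 0.10 for Cish (SE, limma adjusted p = 3.78e-06 and 0.0028). For Cish the macrophage covariate gave -0.45 and omitting the 3 macrophage-high libraries gave -0.39, neither past the threshold (adjusted p = 0.0892 and 0.162). Sh2b3, which encodes the adaptor LNK, was at -0.35 (adjusted p = 0.0357) and lost its call in 7 of the 8 fits without 1 library, all but that without WT replicate 3, at -0.37 to -0.30 (adjusted p = 0.0555 to 0.115).

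Of 15 STAT5 target genes of lymphocytes, Pim2, Myc, Pim1 and Bcl2 rose, Bcl2l1 and Gzmb fell and 9 were not past the threshold, beside 4.41% of all genes tested that were higher and 5.06% that were lower. Their median log2 change was -0.01, beside -0.01 over all genes tested. Pim2, which encodes a survival kinase induced by cytokines of this family, averaged 2294 ± 172 normalized counts in Pdpk1 KO and 923 ± 125 in WT (SD, n = 4 each), with a log2 difference of 1.32 ± 0.11 (SE, limma adjusted p = 2.66e-06). Pim1, its relative, averaged 10518 ± 993 in Pdpk1 KO and 6587 ± 1230 in WT, a log2 change of 0.69 (adjusted p = 0.00181). Of the 3 BCL2 family survival genes on the list, Bcl2, which interleukin 7 is known to induce, was at 0.58 and Bcl2l1 at -1.12 on the log2 scale (adjusted p = 0.000433 and 7.01e-05), while Mcl1 was at -0.01 and not past the threshold (adjusted p = 0.969). Bcl2 was at 0.53 and not past the threshold when the 3 macrophage-high libraries were omitted (adjusted p = 0.0617). Gzmb, a cytotoxic protease gene, was at -5.42 and Myc at 1.23 (adjusted p = 3.56e-05 and 1.27e-06). Gzmb had only 27.9, 3.29, 7.86 and 1.71 normalized counts in Pdpk1 KO replicates 1 to 4. In WT it averaged 333 ± 136 (SD, n = 4). The size of its fall is therefore uncertain, at -6.08 to -4.69 over the 16 alternative fits.

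Of 12 known regulators of Il7r, Tcf7 rose, Gfi1 fell and 10 were not past the threshold, beside 9.47% of all genes tested that were past it. Their median log2 change was -0.02. Tcf7, which encodes TCF1 of naive T cells, averaged 31483 ± 4707 normalized counts in Pdpk1 KO and 21772 ± 2847 in WT (SD, n = 4 each), and its log2 change was 0.53 (limma adjusted p = 0.0205). It lost its call after quantile normalization (0.26, adjusted p = 0.247) and without Pdpk1 KO replicate 2, Pdpk1 KO replicate 3 or WT replicate 4 (adjusted p = 0.0658, 0.0782 and 0.0777). Gfi1, which encodes a repressor of Il7r, averaged 618 ± 23.2 in Pdpk1 KO and 875 ± 151 in WT, a log2 change of -0.49 (adjusted p = 0.0274). Its call was lost without Pdpk1 KO replicate 2, 3 or 4 or WT replicate 1 or 4, at -0.51 to -0.39 (adjusted p = 0.0528 to 0.105). Under the macrophage covariate Tcf7 was at 0.40 and Gfi1 at -0.41 (adjusted p = 0.287 and 0.281), and with the 3 macrophage-high libraries omitted at 0.40 and -0.58 (adjusted p = 0.365 and 0.13). Foxo1 transcripts averaged 6774 ± 899 in Pdpk1 KO and 8676 ± 1381 in WT (SD, n = 4 each, limma adjusted p = 0.0903). Foxo1 was past the threshold with DESeq2 (-0.36, adjusted p = 0.0447), after quantile normalization (-0.40, adjusted p = 0.0367) and without WT replicate 1 (-0.45, adjusted p = 0.028).

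Of 10 other genes known as FoxO1 targets, 6 rose and 4 did not pass the threshold, beside 4.41% of all genes tested that were higher. The median log2 change of the 10 was 0.51. With the macrophage covariate 3 of them were higher and past the threshold. Over all genes tested that fit called 228 higher, against 611 in the fit as reported. Omitting the 3 macrophage-high libraries left 167 genes higher. Those that rose included the pro-apoptotic gene Bcl2l11 at 1.02, Irs2 at 1.07 and Klf2, a factor of T cell quiescence and recirculation, at 0.60 on the log2 scale (limma adjusted p = 0.000106, 0.000939 and 0.00227). Ccr7 and Pik3ip1 were at 0.42 and 0.79 (adjusted p = 0.00712 and 0.0105). Klf2, Ccr7 and Pik3ip1 lost their calls with the macrophage covariate, at 0.39, 0.46 and 0.42 (adjusted p = 0.126, 0.0551 and 0.338), and with the 3 macrophage-high libraries omitted, at 0.62, 0.50 and 0.68 (adjusted p = 0.0553, 0.0981 and 0.125). The Il7r change was larger than that of every tested gene of this list.

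**Figure D5:**
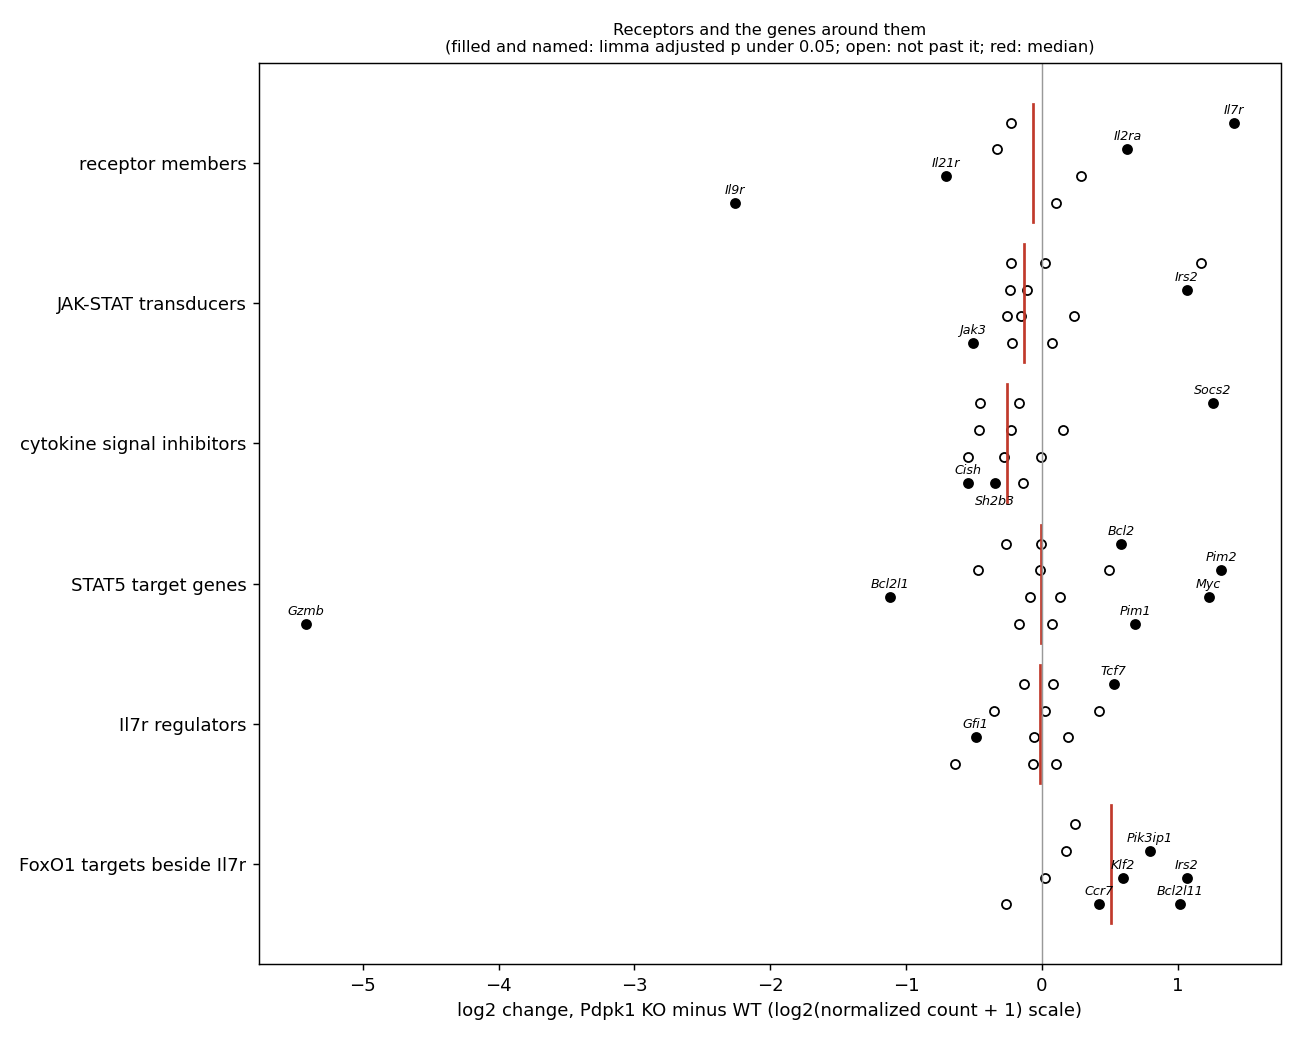
Log2 change (Pdpk1 KO minus WT) of the tested genes in 6 lists, 1 point per gene, filled and named where the adjusted p is under 0.05, with the list's median as a red line. The receptors and the STAT5 target genes hold changes of both signs, while the 5 filled points drawn for the FoxO1 target list are all above 0. A member of that list that is not reported here is not drawn but counts in the median.

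Genes with the library pattern most like each changed receptor were found by the root mean square difference of log2 values, each gene centred on its own mean over the 8 libraries, among 10588 tested genes with a mean normalized count of 50 or more. For Il2ra they were Nabp1 at 0.059, the nucleolar gene Nop56 at 0.082 and the elongation factor kinase gene Eef2k at 0.083 log2 units. For Il21r they were Itm2c at 0.076, the MAX dimerization gene Mxd4 at 0.081 and Cyth4 at 0.083. The distances were larger for Il7r, whose closest genes were Atp10a at 0.251, Ppm1l at 0.266 and the ERK inhibitor gene Spred1 at 0.282. They were largest for Il9r, whose closest were E2f8 at 0.407, Rnf43 at 0.425 and Adap1 at 0.429. The log2 changes of the genes most like Il7r were 1.09, 1.25 and 1.09, each below the 1.41 of Il7r. Eef2k and E2f8 lost their calls under the macrophage covariate, at 0.64 and -1.36 (adjusted p = 0.0653 and 0.237), nor with the 3 macrophage-high libraries omitted, at 0.73 and -1.93 (adjusted p = 0.0542 and 0.054).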

How the data were processed

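Gene-level RNA-seq values were deposited for 8 libraries, 4 per group. The authors deposited 1 signal value per gene and library, a read count over a size factor of its library. Tools named without roles, per the submitters' processing notes, are featureCounts of Subread 2.0.1, DESeq2 1.21, STAR 2.7.6a, Trimmomatic 0.39 and SAMtools 1.11, with the build GRCm38. Strandedness and annotation version are not given in the sources used here, and reads of overlapping genes cannot be told apart. Beside the overlap at Il2rg, Gm37881 overlaps Il2ra on the same strand and had 62.6 to 200 normalized counts over the libraries. Gm44876 overlaps Il4ra on the opposite strand and had 0 to 11.0. In every library 100% of the deposited values were integer multiples of a fixed step (tolerance 0.001), which gave whole reads. Replicates of a group all differed beyond counting noise (chi-square per degree of freedom 14.5 or more).

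Symbols, positions and exon lengths (union of exons) came from GENCODE M21 on GRCm38, which matched 19775 of 19826 genes. Genes with a normalized count of 10 or more in at least 4 libraries were tested (13847, with 5979 removed) by limma 3.58.1 in R 4.3.3 (lmFit, eBayes with trend) on log2(normalized count + 1), two-sided, with Benjamini-Hochberg adjustment over all genes tested and a threshold of 0.05. Adding 1 shrinks the log2 change of a low gene, but the limma value was not always the smaller one. For Il9r limma gave -2.26, while edgeR and DESeq2 each gave -2.16. An adjusted p without a tool's name is limma's. The exact permutation tests were two-sided over 70 assignments of libraries. On the recovered reads edgeR 4.0.16 (quasi-likelihood, TMM) called 1254 genes and DESeq2 1.42.0 called 1756, against 1311 in limma (9.06%, 12.7% and 9.47% of those tested). The limma fit as reported, edgeR and DESeq2 were run on simulated counts, with changes set only in genes that were not low. Changes in low genes and the other alternative fits were not covered.

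The receptor genes and the 7 pathway lists were chosen with earlier results of these data known. Named were all receptor genes, list members past the threshold, and the 3 genes most like each changed receptor. Other genes were named for their role after their values were seen (Jak1, Stat5a, Stat5b, Foxo1, Il2, Il15, Il21, Il13ra1, Mcl1, Ikzf2, Axl and the overlapping gene models). A member of the FoxO1 target list and a macrophage marker are counted but not reported here by name. Protein sequences were not used here.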

Additional observations from a re-analysis of the deposited data

Results flagged for a closer look

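Among the named genes, 94 groups of 4 libraries were examined for a library that stands apart from the other 3, and 5 were found, where chance gives about 1 in 20. No receptor gene was among them. In WT, Bcl2 was at 8008.1 normalized counts in replicate 2, with the others at 8713.8 to 8801.0. In WT, Stat5a was at 3138.8 in replicate 4 (others 3262.4 to 3276.4) and Stat5b at 6796.9 in replicate 2 (others 6354.9 to 6411.1). In Pdpk1 KO, Jak1 was at 16467.9 in replicate 4 (others 20183.5 to 20693.6) and Nop56 at 3607.2 in replicate 3 (others 3903.9 to 3951.2).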

How the results depend on the processing

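The 4 receptor calls kept their direction and stayed past the threshold in all 16 alternatives. Il4ra passed it with DESeq2 and without Pdpk1 KO replicate 4. Il2rb was at -0.0802 after quantile normalization and Il21 at -0.117 with the macrophage covariate. Without 1 library each, Foxp3 ran from -0.0092 (without Pdpk1 KO replicate 1) to 0.166, and Il21 from -0.246 to 0.343, below 0 without Pdpk1 KO replicate 1 or 2 or WT replicate 1. None of these values of Il2rb, Foxp3 and Il21 was past the threshold. No scaling moved the median of all genes by over 0.1.

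With the macrophage covariate 228 genes were higher and 296 lower, and with the 3 macrophage-high libraries omitted 167 and 305. Both settings left 0 higher cytokine genes, 0 lower JAK-STAT transducers, 0 lower inhibitors, 0 higher and 0 lower Il7r regulators and 3 higher FoxO1 targets. The covariate also left 0 lower partner genes. Quantile normalization gave 2 lower transducers and 0 higher and 2 lower Il7r regulators, beside 627 higher and 734 lower of all genes. A pseudocount of 5, edgeR and DESeq2 each gave 2 higher Il7r regulators, and DESeq2 3 lower. Over all genes these settings gave 654, 599 and 848 higher, and DESeq2 908 lower. The fit as reported gave 611 higher and 700 lower. The causes of these differences were not tested.

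Whether the replicate numbers pair libraries is not stated in the sources used here. Same-numbered libraries correlated at 0.217, 0.0921, 0.0481 and 0.113 in their deviations from the group means, and differently numbered ones at -0.156 to 0.109. Pdpk1 KO replicates 1, 3 and 4 were closest to the WT library of their own number. Pdpk1 KO replicate 2 was closer to WT replicate 3 (0.109). The fit as reported assumes no pairing. With the replicate block 1243 genes were higher and 1292 lower, of them 3 receptor genes higher (with Il4ra, 0.29, adjusted p = 0.00703) and 3 lower (with Il2rg, -0.33, adjusted p = 0.0111), 2 transducers higher and 5 lower, 7 inhibitors lower, 4 STAT5 targets lower, 3 Il7r regulators higher and 3 lower, and 1 FoxO1 target lower, and Foxo1 passed the threshold (-0.35, adjusted p = 0.000672).

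Without 1 library each, counts ran from 389 to 588 genes higher and 495 to 724 lower, from 2 to 3 receptor genes higher and 2 to 3 lower, from 0 to 1 cytokine genes higher, from 1 to 3 inhibitors lower, from 4 to 5 STAT5 targets higher and 2 to 3 lower, and from 0 to 2 Il7r regulators higher and 0 to 2 lower. Low counts limit Il9r, Il15ra, Gzmb and the cytokine genes.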
